A study of Mus musculus with 50 samples.

Results

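Voltage-gated sodium channels were followed in mouse motor neurons through the 8 subunit genes Scn1a, Scn2a, Scn3a, Scn8a, Scn9a, Scn2b, Scn3b and Scn4b. They were taken by symbol from the gene tables of all 28 RNA-seq libraries, and all 8 were among the 55385 genes listed there. RNA-seq measured gene expression and ATAC-seq, which cuts accessible DNA with a transposase, measured open chromatin in 22 libraries, 2 per group. At E10.5 (3 RNA libraries), whole cells were sorted from spinal cords of Hb9-GFP embryos, in which a motor neuron promoter drives GFP, with several embryos pooled per library. From E13.5 (2 libraries) onwards, that is at P4 (3), P13 (2), P21 (3), P56 (3) and an age of 2 years (2), nuclei were isolated from spinal cords of Chat-Cre; SUN1-GFP mice with several animals pooled per library. Chat-Cre marks every cholinergic neuron, so that other cholinergic cells of the cord carry the nuclear tag as well, and it is also known to mark some GABAergic and glutamatergic neurons. By deconvolution of its P56 RNA, the paper found no significant part of non-cholinergic cells. It ascribed most of the P56 signal to skeletal motor neurons and a smaller part to visceral motor neurons. The culture libraries came from motor neurons differentiated from a Chat-Cre; SUN1-GFP embryonic stem cell line, at DIV0 (2), at DIV7 (2) and at DIV28 (3) without treatment, and at DIV28 (3) after growth with 1 µM TTX from DIV0 on. DIV counts the days in vitro after dissociation of the embryoid bodies, and the plated neurons grew on mouse cortical astrocytes in both the untreated and the TTX cultures.

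A voltage-gated sodium channel is built from a large alpha subunit, which alone forms the pore, the voltage sensor and the inactivation gate, and from small beta subunits with a single membrane span, which tune gating and surface level and act as adhesion molecules. Opening of the pore by depolarisation carries the rising phase of the action potential, and in motor neurons the channels are concentrated at the axon initial segment and the nodes of Ranvier. Tetrodotoxin (TTX) plugs the outer mouth of the pore, and the channels of all 5 alpha subunits studied here are blocked by it. Scn3a is known as an alpha subunit of the embryonic nervous system, Scn2a is found early in axons, Scn8a is the main alpha subunit of mature nodes, Scn1a is prominent in fast firing neurons, and Scn9a is best known from peripheral sensory neurons. Scn2b and Scn4b are linked to the alpha subunit by a disulphide bond and Scn3b is bound without one. Scn4b is also known for its part in resurgent sodium current, which helps neurons to fire at high rates.

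Total counts per RNA library ranged from 2704682 to 21823500. The 6 motor neuron markers Chat, Slc5a7, Slc18a3, Isl1, Mnx1 and Prph were detected in every group, with a summed level between 337.9 and 1793 CPM. CPM is counts per 1000000 counts of a library after TMM scaling, which sets the libraries to a common scale. A library titled DIV0 replicate 3 was counted as DIV28 replicate 3, the group that the name of its deposited table gives, while its remaining labels give no day, and its log2 values over 12890 genes correlated at 0.949 with the DIV28 mean and at 0.682 with the DIV0 mean. Values of genes of other cells moved with age: 4 endothelial markers summed to between 1477 and 3016 CPM at E13.5, to between 632 and 877 at P4 and to at most 9.24 at P21, and to between 0.78 and 2.24 at E10.5, with Cdh5 at 0. The 5 erythroid markers summed to between 2047 and 2353 CPM at E13.5 and to between 35.9 and 66.7 at P21, and the 6 oligodendrocyte lineage markers summed to between 1771 and 1800 at P13 and to between 984 and 1309 at P21. The 4 markers of GABAergic or glycinergic neurons summed to between 14.97 and 19.4 CPM at E13.5, 56.3 and 94.1 at P4 and 76.8 and 120.5 at P21, and in culture to between 1.87 and 2.95 at DIV0 and 60.7 and 105.5 at DIV28. The glutamatergic marker Slc17a6 had between 13.2 and 18.5 CPM at E13.5, 46.6 and 64.4 at P4 and 24.8 and 29.6 at P21, and the 5 astrocyte markers summed to between 143.8 and 222.7, 333.2 and 468.8 and 92.4 and 137.4 at the same ages. The neuronal markers thus differed between the same groups as Scn1a, and the part of these other cells in the members' values was not tested. In these bulk libraries, fewer cells of a type and less RNA per cell cannot be told apart. The noncoding RNA Gm26917 took between 15.5% and 16.2% of the counts at E10.5 and at most 8.34% elsewhere, and whole cells were used at E10.5 only, so that age and preparation cannot be told apart in comparisons with E10.5.

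Scn1a (ENSMUSG00000064329.13), Scn2a, Scn3a and Scn9a lay close together on chromosome 2 in the genome build mm10 used for the files, at chr2:66270778-66440840, chr2:65620771-65767447, chr2:65457118-65567627 and chr2:66480080-66634962. Scn2b and Scn4b were neighbours on chromosome 9, at chr9:45117782-45130070 and chr9:45138395-45154152, Scn3b lay at chr9:40269217-40291618 and Scn8a at chr15:100869858-101045938. The alpha genes are long, between 110.5 and 176.1 kb from end to end, and the beta genes span between 12.3 and 22.4 kb. Reads of the related alpha genes were split by the counting: Scn1a, Scn2a, Scn3a and Scn9a held fractional counts in 26, 27, 28 and 26 of the 28 libraries, whereas Scn8a and the 3 beta genes held whole counts in all, so that the levels of the former 4 rest in part on how shared reads were divided. Scn9a also shared 180 of its 12772 exon bases with the antisense gene Gm13629, and since the counting was run with default settings, which use no strand, reads of the pair cannot be told apart there.

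The promoters of Scn1a, Scn2b and Scn4b are shown because these genes carry large differences with TTX, over culture and with age described below, and because their windows differ widely in base composition and in the peaks found there. Each window holds 250 bases before the RefSeq start and 50 after it, so that it covers upstream sequence and the beginning of the first exon, on the strand of the gene in GRCm38.p6. The letters run 5′ to 3′ and capitals mark every CG dinucleotide. The windows are chr2:66440788-66441087 on the minus strand for Scn1a and, on the plus strand, chr9:45117626-45117925 for Scn2b and chr9:45138374-45138673 for Scn4b.
Scn1a promoter: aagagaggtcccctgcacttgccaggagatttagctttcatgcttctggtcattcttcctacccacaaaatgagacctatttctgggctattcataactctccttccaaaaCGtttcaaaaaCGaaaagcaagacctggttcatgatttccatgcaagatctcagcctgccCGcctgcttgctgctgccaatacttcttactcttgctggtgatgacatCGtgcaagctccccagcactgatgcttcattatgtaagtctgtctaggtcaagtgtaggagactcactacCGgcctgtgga
Scn2b promoter: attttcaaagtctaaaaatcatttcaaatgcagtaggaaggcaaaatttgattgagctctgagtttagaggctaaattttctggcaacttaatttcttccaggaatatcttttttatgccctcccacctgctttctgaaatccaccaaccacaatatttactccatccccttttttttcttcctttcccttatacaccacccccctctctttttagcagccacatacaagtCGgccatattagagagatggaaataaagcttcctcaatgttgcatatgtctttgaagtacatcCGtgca
Scn4b promoter: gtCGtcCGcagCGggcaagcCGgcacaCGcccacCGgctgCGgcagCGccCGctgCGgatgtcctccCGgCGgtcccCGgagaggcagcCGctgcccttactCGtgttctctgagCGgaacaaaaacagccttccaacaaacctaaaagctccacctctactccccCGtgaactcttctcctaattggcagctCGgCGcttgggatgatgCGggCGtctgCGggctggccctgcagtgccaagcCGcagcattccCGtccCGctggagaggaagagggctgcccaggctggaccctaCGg
The Scn4b window held 26 CG dinucleotides and was 66.3% G or C, against 5 and 47.3% for Scn1a and 2 and 38.3% for Scn2b. The median over 32851 promoters of the same length was 7 CG dinucleotides and 52.7% G or C. The AP-1 motif TGANTCA, searched on both strands, was in none of the 8 RefSeq windows of the members and in 7.81% of all promoters.

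The first question was how the subunits changed with age in the cord. A gene was called changed at an unadjusted p under 0.001 and a difference of at least 2-fold in edgeR's quasi-likelihood test, and adjusted p-values are over all genes of the fit. Values of a group are given in the order of its replicate numbers. Levels in CPM were scaled over all 28 libraries, whereas each fit scaled its own libraries and genes. The log2 changes therefore need not equal the ratio of the printed levels. From E13.5 to P4 and to P21, the fitted changes were higher than those levels give. Between E10.5 and E13.5, when axons reach their muscles, 5 of the 8 members rose, all of them alpha subunits, against 24.6% of all 15030 genes tested that were called higher. Between E13.5 and P4, 5 of the 8 rose, Scn1a, Scn2a, Scn8a, Scn2b and Scn4b, against 23.8% of all genes. Between P4 and P13, Scn4b alone of the 8 rose, against 5.8% of all genes. The median log2 change of the members was 1.83 from E10.5 to E13.5 and 1.56 from E13.5 to P4, where the median over all genes was 0.13 and 0.12.

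**Figure D1:**
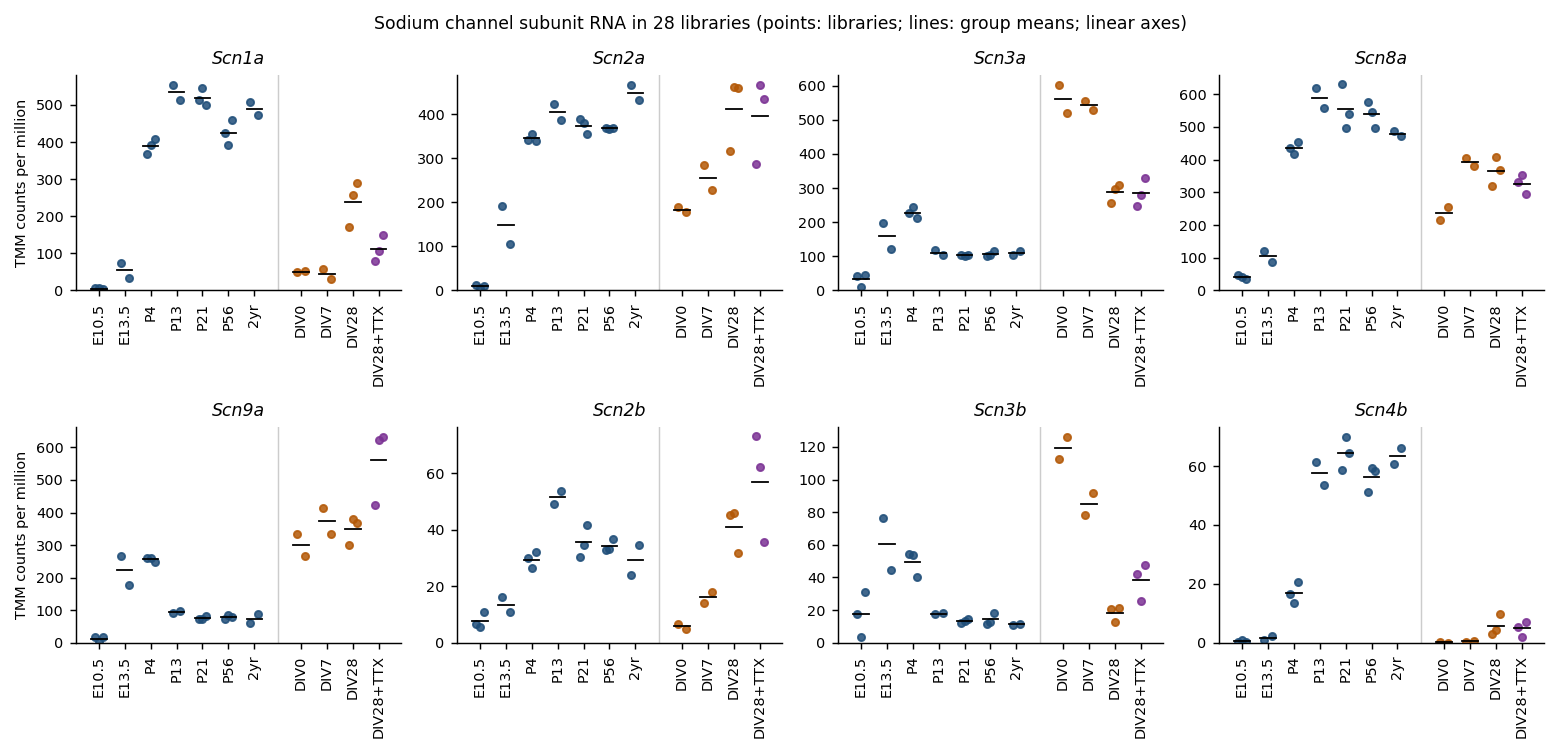
Level of each subunit gene in every RNA library, in TMM-scaled CPM on linear axes from 0, with 1 panel per gene, points for libraries and short lines for group means, in order of age and then of days in vitro. Scn1a, Scn2a and Scn8a climb up to P13, with their steps up to P4 called and none after it. In the cord, Scn3a, Scn9a and Scn3b are highest at E13.5 and P4, and their highest libraries of all are in culture. In the cord, Scn4b is at or under 2.21 CPM up to E13.5 and from 51.1 to 69.8 from P13 on.

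Scn1a had 7.13, 5.32 and 2.87 CPM at E10.5, 73.8 and 34.1 at E13.5, 367, 393 and 409 at P4, 554 and 513 at P13 and 513, 547 and 499 at P21. The groups up to P4 did not overlap, and every library from P13 on held at least 391 CPM. The log2 change was 3.21 ± 0.31 (SE, adjusted p = 7.43e-08) from E10.5 to E13.5 and 3.22 ± 0.31 (adjusted p = 8.9e-08) from E13.5 to P4, a 9.23-fold and a 9.34-fold rise. Scn2a took its larger step before birth, from 11.6, 6.44 and 11.2 CPM at E10.5 to 192 and 104 at E13.5, and then reached 341, 355 and 340 at P4. The log2 change of Scn2a was 3.73 ± 0.26 (adjusted p = 1.39e-09) in the first step and 1.59 ± 0.25 (adjusted p = 2.3e-05) in the second. Scn8a had 47.9, 41.6 and 35.9 CPM at E10.5 and rose to 122 and 87.8 at E13.5 and to 436, 416 and 455 at P4, and had 618 and 557 at P13. Its step from E13.5 to P4 was the larger, with a log2 change of 2.43 ± 0.19 (adjusted p = 1.3e-08) against 1.13 ± 0.18 (adjusted p = 2.32e-05) before it.

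Scn3a and Scn9a rose before birth, and their adult libraries lay below those at P4. Scn3a had 42.6, 10.9 and 44.6 CPM at E10.5, 198 and 121 at E13.5, 227, 245 and 211 at P4, 117 and 104 at P13 and 103, 101 and 105 at P21. Its log2 change was 2.08 ± 0.36 (adjusted p = 6.88e-05) to E13.5, and from P4 to P13 it was −1.01 ± 0.37 (adjusted p = 0.0421), which did not reach the limit on p although the P4 and P13 libraries did not overlap. Scn9a had the largest estimated prenatal fold of the 8, from 16.1, 2.66 and 18.7 CPM at E10.5 to 267 and 178 at E13.5, a log2 change of 3.95 ± 0.42 (adjusted p = 2.73e-07). It stood at 261, 261 and 249 CPM at P4 and at 90.6 and 97.4 at P13, a log2 difference of −1.43 ± 0.41 (adjusted p = 0.0118) that was likewise not called. In a fit of the P4 and P13 libraries alone, Scn3a, Scn9a and Scn3b passed the limits beside Scn4b, with log2 changes of −1.08, −1.49 and −1.52. At E10.5, replicate 2 was the lowest of the 3 libraries for Scn3a, Scn9a and Scn3b, and its motor neuron markers summed to 379.1 CPM against 490.0 and 722.1 in the others. Without it, the log2 change to E13.5 was 1.66 for Scn3a and 3.46 for Scn9a. Without E13.5 replicate 1, it was 1.56 for Scn3a (adjusted p = 0.00264) and 0.76 for Scn8a (adjusted p = 0.00103), and neither was called. Without E10.5 replicate 3, Scn2b (1.12) and Scn3b (2.52) passed the limits as well.

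Among the beta subunits, Scn4b changed most. It had 0.31, 0.84 and 0.30 CPM at E10.5, from 2, 6 and 2 counts, 0.91 and 2.21 at E13.5, 16.5, 13.4 and 20.5 at P4, 61.3 and 53.7 at P13 and 58.7, 69.8 and 64.4 at P21. No group up to P13 overlapped the next, and Scn4b passed the filter on low counts only through the groups from P4 on. Its call from E13.5 to P4 is therefore a description. The log2 change was 3.69 ± 0.29 (adjusted p = 1.31e-08) from E13.5 to P4 and 1.81 ± 0.21 (adjusted p = 6.31e-06) from P4 to P13. Scn2b, the other disulphide-linked subunit, rose from 16.1 and 10.8 CPM at E13.5 to 29.9, 26.4 and 32.0 at P4, a log2 change of 1.52 ± 0.28 (adjusted p = 1.15e-04), and had 49.1 and 53.9 at P13. Without E13.5 replicate 2 the step of Scn2b to P4 was 1.17 (adjusted p = 0.00612) and was no longer called. Scn3b had lower values at later ages, with 76.2 and 44.4 CPM at E13.5, 54.5, 53.9 and 40.4 at P4, 17.4 and 18.3 at P13 and 12.1, 13.6 and 14.4 at P21. Its difference between P4 and P13 was −1.45 ± 0.51 on the log2 scale (adjusted p = 0.0341) and was not called. At E13.5, replicate 2 was lower than replicate 1 for every member but Scn4b, and its endothelial markers summed to 3016 CPM against 1477. The part of those other cells in these values was not tested.

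From E13.5 to P21, 5 of the 8 members rose, Scn1a, Scn2a, Scn8a, Scn2b and Scn4b, against 29.8% of all genes called higher, and this comparison shares its E13.5 libraries with the step to P4. The rise was 50.6-fold for Scn4b, 12.7-fold for Scn1a, 7.0-fold for Scn8a, 3.54-fold for Scn2b and 3.32-fold for Scn2a. As in the step to P4, Scn4b was in the fit only through the groups from P4 on, so that its call is a description. Scn3a, Scn9a and Scn3b differed by −0.23, −1.15 and −1.77 on the log2 scale, with adjusted p-values of 0.561, 0.0118 and 0.00364, and were not called. Scn3b passed the limits with DESeq2, at −1.87, and both Scn9a and Scn3b did so with an adjusted p limit of 0.05, without the filter on low counts (−1.39 and −2.01) and in a fit of the libraries compared alone (−1.31 and −1.93), which makes 7 of 8 called in these 3 settings.

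After P13, none of the 8 members was called in any step. The background was 7.3% of all genes called at P21 against P13, 0.173% at P56 against P21 and 0.685% at the age of 2 years against P56, and DESeq2 called none either. At an unadjusted p under 0.05 there was 1 member in the first of these steps, Scn2b, and 0 in the later ones. From P21 to 2 years, over 8 libraries, Scn1a stayed between 391 and 547 CPM, Scn2a between 354 and 467, Scn8a between 473 and 631, Scn3a between 100.3 and 116.9 and Scn4b between 51.1 and 69.8. The largest log2 difference of a member between P56 and 2 years was 0.34 ± 0.23 for Scn2a (adjusted p = 0.588).

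Levels of different genes were compared per length, in TPM, which divides counts by the length of the transcripts present. At P21, the order was Scn2a with 80.8 ± 15.9 TPM (SD, n = 3), Scn8a with 61.0 ± 16.2, Scn1a with 59.1 ± 5.8, Scn3a with 19.3 ± 4.37, Scn4b with 7.87 ± 0.64, Scn9a with 6.19 ± 0.43, Scn2b with 4.63 ± 0.28 and Scn3b with 2.80 ± 0.27. The first 3 overlapped with their neighbour in that order and the following neighbours did not. At E13.5, Scn3a led with 28.5 and 54.3 TPM, and the libraries of Scn3a and Scn2a overlapped, as did those of Scn8a, Scn9a and Scn3b with the next in order. At DIV0, Scn3a led with 63.8 and 66.9 TPM, clear of Scn2a with 26.7 and 33.8. The effective length that the counting assigned to a gene differed between libraries by up to 2.98-fold, in Scn3b, and by only 1.02-fold and 1.03-fold in Scn4b and Scn2b.

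The makeup of the alpha pool, as the share of each gene in the summed counts per kilobase of the 5 alpha genes within a library, differed between E13.5 and the ages from P13 on. Scn3a held 36.1% ± 3.71 (SD, n = 2) at E13.5, 14.2% ± 0.45 (n = 3) at P4 and 8.49% ± 0.42 (n = 3) at P21. Scn9a went from 16.0% ± 0.10 over 10.4% ± 0.81 to 2.81% ± 0.63 at the same ages. Scn1a moved the other way, from 5.91% ± 1.53 over 20.2% ± 0.88 to 26.4% ± 2.73, and Scn8a from 17.4% ± 5.36 over 19.7% ± 1.27 to 26.7% ± 2.63. Scn2a went from 24.7% ± 0.02 to 35.6% ± 0.89 at P21. Scn3a and Scn9a together made up 49.3% and 54.7% in the E13.5 libraries, between 24.2% and 25.2% at P4 and between 8.80% and 13.2% in all 10 libraries from P13 to 2 years, so that these ages did not overlap. At E10.5 the libraries disagreed, with Scn3a plus Scn9a between 17.7% and 52.7%, and replicate 2 alone had 72.6% of its alpha signal in Scn8a. Groups of 2 and 3 libraries are too small for an exact test of a share to reach 0.05, and no test was made. Without division by length, the order at P21 was Scn8a with 34.0%, Scn1a with 32.0% and Scn2a with 23.0%, and at E13.5 Scn9a was first with 32.6%, ahead of Scn3a with 23.1%.

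**Figure D2:**
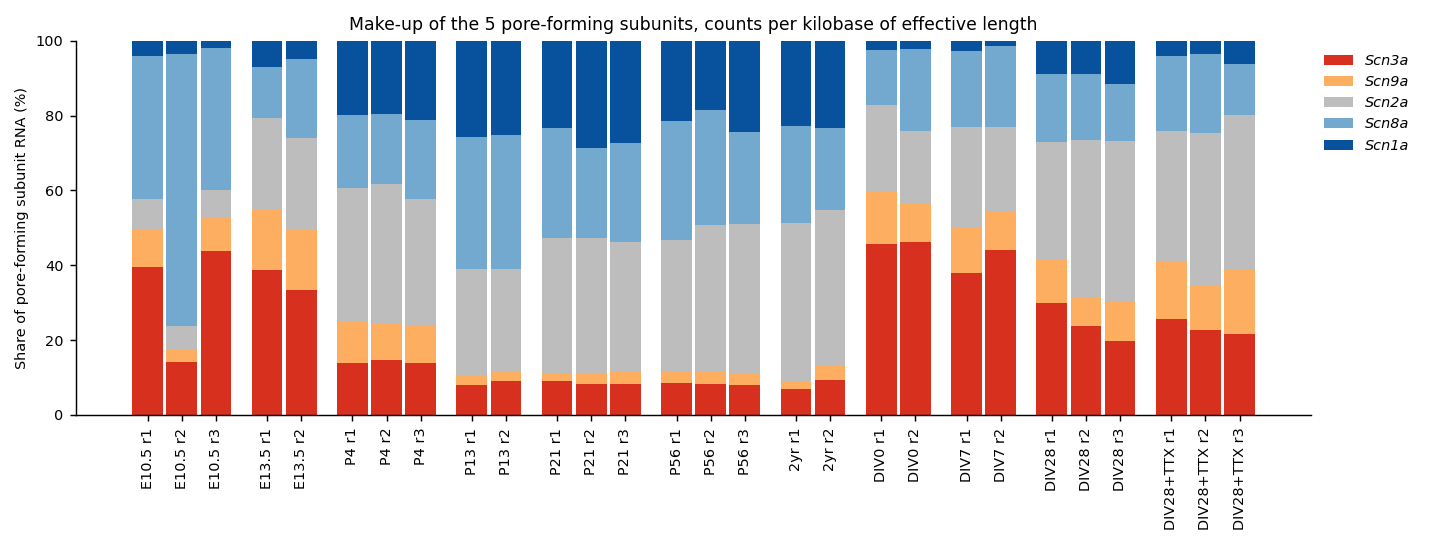
Share in percent of each of the 5 alpha genes in the counts per kilobase of all 5, as 1 stacked bar per library by age and culture condition. The Scn3a and Scn9a parts at the bottom of the bars together make up a mean of 52.0% at E13.5 and 11.3% at P21, and 58.1% at DIV0 and 34.4% at DIV28.

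The second question was how the subunits changed during 28 days in culture. From DIV0 to DIV28, 4 of the 7 members tested were called, against 19% of all 12890 genes: Scn1a and Scn2b rose and Scn3a and Scn3b fell. Scn1a had 50.4 and 51.0 CPM at DIV0, 58.0 and 31.9 at DIV7 and 170.5, 256.5 and 289.3 at DIV28, a log2 change of 2.19 ± 0.38 (adjusted p = 8.63e-04) over the whole time. Scn2b had 6.77 and 4.83 CPM at DIV0, 14.1 and 18.1 at DIV7 and 45.3, 46.2 and 31.7 at DIV28, a 6.8-fold rise (log2 change 2.77 ± 0.38, adjusted p = 1.74e-04). Scn3b fell by the same factor, from 113 and 126 CPM at DIV0 over 78.2 and 92.0 at DIV7 to 20.6, 12.8 and 21.4 at DIV28 (log2 change −2.77 ± 0.31, adjusted p = 4.95e-05). Scn3a went from 603 and 521 CPM at DIV0 over 555 and 529 at DIV7 to 257, 298 and 309 at DIV28, with a log2 change of −1.01 ± 0.23 (adjusted p = 4.9e-03). Its libraries did not overlap, but the call lay at the limit and was lost without any of the 5 libraries compared, at −0.90 to −1.11. Without either DIV0 library the call of Scn1a was lost too, with 2.18 and 2.2 on the log2 scale, where the lone DIV0 library is assumed to vary like the other groups.

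By step, none of the 7 was called from DIV0 to DIV7, against 11.2% of all genes, with 2 at an unadjusted p under 0.05 and none called by DESeq2, and 2 were called from DIV7 to DIV28, against 7.7%. These were Scn1a, with a log2 change of 2.39 ± 0.38 (adjusted p = 2.33e-03), and Scn3b, with −2.24 ± 0.31 (adjusted p = 1.2e-03). Without DIV7 replicate 2 the change of Scn1a was 2.02 (adjusted p = 0.0389) and was not called. Scn2a had 189 and 177 CPM at DIV0, 284 and 229 at DIV7 and 317, 463 and 460 at DIV28, a log2 difference of 1.12 ± 0.29 over the whole time (adjusted p = 0.0106) that was not called. Scn8a had 216 and 255, then 405 and 381, then 318, 407 and 370 CPM, and Scn9a had 335 and 267, then 415 and 333, then 300, 381 and 367, both without a call.

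Scn4b lay below the filter on low counts in culture and was left out of the fit of the culture libraries. It had 1 and 0 counts at DIV0, 1 and 3 at DIV7 and 13, 70 and 72 at DIV28. The ratio of DIV28 to DIV0, relative to library totals, was 43.7 with an exact 95% interval from 7.72 to 1736, and the ratio of DIV7 to DIV0 was 4.46 with an interval from 0.44 to 219; these intervals cover counting error only. DIV28 replicate 3, the library titled DIV0, was the highest of all culture libraries, with 9.70 CPM. Without that library, the calls from DIV0 to DIV28 stayed for Scn1a at 2.01, Scn2b at 2.91 and Scn3b at −2.91. With it counted as DIV0 instead, no member was called in any step of culture, and Scn1a had a log2 change of 0.67 from DIV0 to DIV28.

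The third question was how the cultured neurons compare with those of the cord. DIV0 neurons were set beside E13.5, where Scn3a was 4.06-fold higher in culture (log2 difference 2.02 ± 0.37, adjusted p = 6.6e-05) and Scn8a 2.6-fold higher (1.38 ± 0.21, adjusted p = 6.48e-06). The background was 15.1% of all 15521 genes called higher at DIV0. Without E13.5 replicate 2 the difference of Scn3a was 1.65 (adjusted p = 0.00378) and was not called, and without E13.5 replicate 1 Scn2a passed the limits, at 1.22. Scn1a differed by 0.11 ± 0.34 in the fit and its libraries overlapped between the groups. On the scale of the printed levels, the mean of Scn1a was 50.7 CPM at DIV0 and 53.9 at E13.5. Scn4b had 28 counts over the E13.5 libraries against 1 over the DIV0 libraries, a ratio of 14.1 with an exact 95% interval from 2.33 to 575.

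At DIV28, set beside P21, 4 of the 8 members were called, against 26.3% of all genes in either direction. Scn9a was 4.46-fold higher in culture, with 300, 381 and 367 against 73.1, 73.7 and 81.3 CPM (log2 difference 2.16 ± 0.34, adjusted p = 2.03e-05), and Scn3a was 2.72-fold higher (1.44 ± 0.30, adjusted p = 3.53e-04). Scn4b was 11.7-fold lower, with 2.82, 4.27 and 9.70 against 58.7, 69.8 and 64.4 CPM (−3.55 ± 0.30, adjusted p = 4.69e-09), and Scn1a was 2.24-fold lower (−1.16 ± 0.27, adjusted p = 9.91e-04). No DIV28 library of these 4 genes overlapped a P21 library. Scn4b was in this fit only through the cord groups from P4 on, P21 among them, so that its call is a description. The call of Scn1a was lost without P21 replicate 2, at −1.11, and without DIV28 replicate 1, at −0.97. Scn2a, Scn2b and Scn3b differed by 0.10, 0.17 and 0.39 on the log2 scale, and for each the libraries of both groups overlapped. Scn8a was lower by 0.65 ± 0.16 (adjusted p = 0.00227), under the 2-fold limit. Oligodendrocyte lineage markers summed to between 7.45 and 11.5 CPM at DIV28 against 984 to 1309 at P21. Preparation and system cannot be told apart in these comparisons.

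Whether the change over culture differed from the change in the cord was tested as an interaction, DIV0 to DIV28 against E13.5 to P21. Of the 7 members for which it is given, 1 was called, against 41.7% of all genes. Scn8a rose 7.0-fold in the cord and was not called in culture, and the difference of the log2 changes was −2.02 ± 0.26 (adjusted p = 9.86e-07). Scn1a, Scn9a and Scn2b had interaction values of −1.28, 1.52 and 1.15 with adjusted p-values of 0.0134, 0.0146 and 0.0181, and were not called, but without E13.5 replicate 1 Scn1a was called, at −2.12. The interaction of Scn4b is not given, since DIV0 held a single count.

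**Figure D3:**
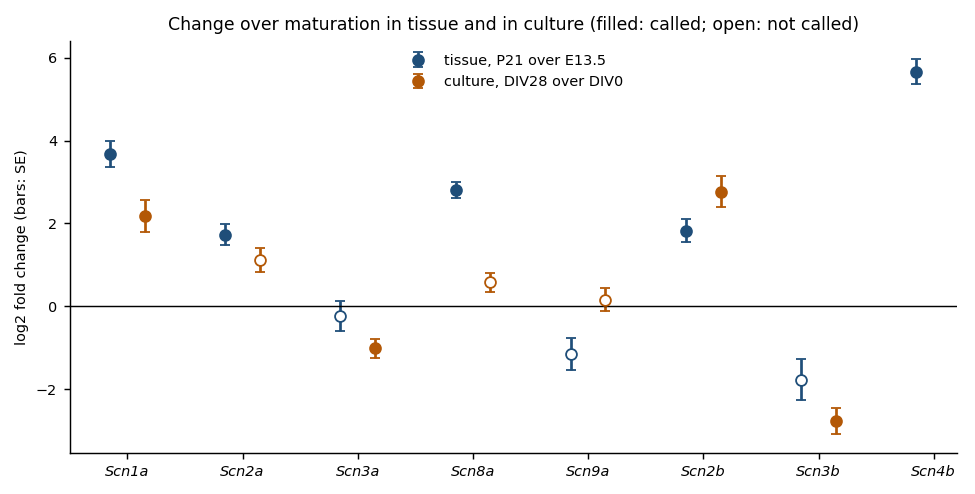
Log2 change of each member from E13.5 to P21 in the cord and from DIV0 to DIV28 in culture, with bars of 1 SE, filled symbols for calls and no culture point for Scn4b. Scn8a stands apart, at 2.81 in the cord and 0.58 in culture, while Scn2b and Scn1a rise in both.

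The fourth question was whether blocking the channels with TTX changed the genes that encode them. Scn1a had 78.4, 106.3 and 148.5 CPM with TTX against 170.5, 256.5 and 289.3 without it, Scn3b had 42.3, 25.7 and 47.4 against 20.6, 12.8 and 21.4, and Scn9a had 424, 624 and 632 against 300, 381 and 367. In these 3 genes, the libraries with TTX did not overlap those without it, Scn1a being lower and Scn3b and Scn9a higher. The share of all genes whose libraries separated in this way was not counted. In the fit of all culture libraries, none of the 7 members tested was called, against 0.683% of all genes, with 3 at an unadjusted p under 0.05. The log2 difference was −1.08 ± 0.31 for Scn1a (adjusted p = 0.255), 1.09 ± 0.28 for Scn3b (adjusted p = 0.192) and 0.70 ± 0.24 for Scn9a (adjusted p = 0.405).

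The replicates of the TTX and untreated cultures are paired by the study, and these 3 genes differed in the same direction in every pair. How many of all genes agreed in direction in every pair was not counted either. The log2 difference within pairs 1, 2 and 3 was −1.11, −1.26 and −0.96 for Scn1a, 1.01, 0.95 and 1.11 for Scn3b, and 0.50, 0.71 and 0.78 for Scn9a. With the pair as a block in the fit of all culture libraries, 1.33% of all genes were called, and of the members Scn3b rose (1.08, adjusted p = 0.051) while Scn1a, at −1.11 (adjusted p = 0.0702), was not called. In a fit of the 6 libraries compared with the same block, which was chosen after seeing the data, 2.61% of 10764 genes were called. There Scn1a fell (−1.09 ± 0.12, adjusted p = 8.64e-05) and Scn3b rose (1.09 ± 0.18, adjusted p = 0.00177), and Scn9a had a difference of 0.69 ± 0.12 (adjusted p = 0.00209) that stayed under 2-fold. DESeq2 without the block called Scn3b (adjusted p = 0.0334), and the quasi-likelihood test without the filter on low counts called Scn1a (adjusted p = 0.00885) and Scn3b (adjusted p = 0.0337). Without DIV28 replicate 3, the library titled DIV0, the differences were −0.92 for Scn1a and 1.23 for Scn3b and neither was called, whereas without TTX replicate 2 Scn3b was called, at 1.31.

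For the other members, the libraries with TTX overlapped those without it. Scn2a had 286, 467 and 436 CPM with TTX against 317, 463 and 460, Scn3a 247, 281 and 330 against 257, 298 and 309, and Scn8a 332, 353 and 294 against 318, 407 and 370, with log2 differences of −0.04 ± 0.25, 0.00 ± 0.21 and −0.15 ± 0.20. Scn2b had 73.1, 62.4 and 35.9 against 45.3, 46.2 and 31.7 CPM, higher in all 3 pairs by 0.68, 0.43 and 0.17 on the log2 scale, and was not called in any of these fits. Scn4b had 22, 21 and 32 counts with TTX, and its pairs differed in direction. In the alpha pool, the share of Scn1a was 9.78% ± 1.53 (SD, n = 3) without and 4.69% ± 1.44 (n = 3) with TTX, and that of Scn9a was 10.02% ± 2.25 and 14.8% ± 2.83. Markers of other cells and of the motor neurons themselves also differed with TTX. The 4 markers of GABAergic or glycinergic neurons summed to 105.5, 86.1 and 60.7 CPM without and to 83.9, 40.2 and 43.2 with TTX, lower in every pair, and the 5 astrocyte markers summed to 16.0, 17.1 and 52.4 without and to 23.6, 41.2 and 92.4 with it, higher in every pair. The glutamatergic marker Slc17a6 was between 8.89 and 16.6 CPM without and between 6.32 and 12.2 with TTX. Of the 6 motor neuron markers, Chat had between 65.9 and 99.5 CPM without and between 18.3 and 49.8 with TTX, and Slc5a7 between 127.3 and 133.5 against 70.6 to 112.8, both without overlap, while the other 4 overlapped. The part of these differences in the values of Scn1a, Scn3b and Scn9a was not tested.

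**Figure D4:**
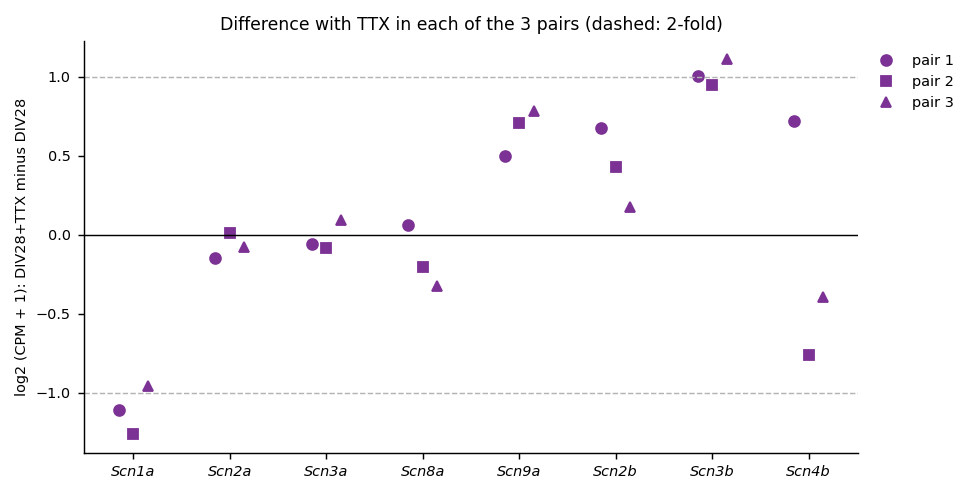
Difference of log2 of scaled CPM plus 1 between DIV28 cultures with and without TTX for each member, with 1 symbol per pair and dashed lines at 2-fold. All 3 pairs lie below 0 for Scn1a and above 0 for Scn9a, Scn2b and Scn3b, those of Scn2a, Scn3a and Scn8a lie between −0.33 and 0.09, and those of Scn4b lie on both sides of 0.

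Other genes of the channel complex were taken from fixed lists of its binding partners and its scaffold. The FGF homologous factors Fgf11, Fgf12, Fgf13 and Fgf14 bind the tail of the alpha subunits and slow their inactivation. The share of all genes called was 29.8% higher from E13.5 to P21, and in either direction 19% from DIV0 to DIV28 and 26.3% between DIV28 and P21. Of these 4, 3 rose from E13.5 to P21 (Fgf11 by 3.37, Fgf12 by 2.00 and Fgf14 by 3.88 on the log2 scale), 1 rose from DIV0 to DIV28 (Fgf12, 2.03), and 2 were lower at DIV28 than at P21 (Fgf12, −1.16, and Fgf14, −2.74). In the fit of the cord libraries, Fgf14 passed the filter on low counts only through the groups from P4 on.

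The scaffold that holds the channels at the initial segment and the node was represented by Ank3, Ank2, Sptbn4, Nfasc, Nrcam, Cntn1, Cntnap1 and Trim46. Of these 8, 7 rose from E13.5 to P21, led by Cntnap1 at 4.73 and Sptbn4 at 3.92 on the log2 scale, with a median of 1.81 against 0.15 over all genes. The exception was Ank3, which encodes the ankyrin that anchors the channels. Nfasc rose from a low at E13.5, with 416, 331 and 516 CPM at E10.5, 85.9 and 56.1 at E13.5 and 545, 480 and 480 at P21. From DIV0 to DIV28, 3 rose, Sptbn4, Cntn1 and Cntnap1. In the interaction, where 41.7% of all genes were called, 4 of the 8 had the lower change in culture, Nfasc at −3.75, Cntnap1 at −2.24, Sptbn4 at −1.82 and Nrcam at −1.63, and 2 of the 4 FGF homologous factors, Fgf11 at −2.29 and Fgf14 at −1.95. With TTX, none of the 4 FGF homologous factors and none of the 8 scaffold genes was called.

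Open chromatin was read from peaks called in each of the 22 ATAC-seq libraries, between 80386 and 224328 per library. A window of 300 bases around each start held a peak in 205 of 220 pairs of window and library for the 10 start windows of the 8 members. By library, between 44.0% and 50.8% of all 32851 promoters held a peak. Scn3a, Scn9a, Scn3b, Scn4b, both starts of Scn2a and the upstream start of Scn8a held a peak in all 22 libraries. The downstream start of Scn8a held one in 13 of 22.

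Scn1a had no promoter peak in either E10.5 library and had 1 in each of the other 20. The E10.5 libraries came from whole cells and the others from nuclei, so that age and preparation cannot be told apart there. The E10.5 lists held 80386 and 97002 peaks, where the longest list held 224328. Peaks were ranked by −log10 p within their library, with 1 the highest, and since the lists differ in length the rank is also given in percent of the list. The Scn1a peak stood at 59446 and 53431 at E13.5 (33.1% and 34.1%) and between 14790 and 35551 over the libraries from P4 to 2 years, where the range in percent was 8.64% to 21.8%, so that E13.5 did not overlap the later ages on either scale. In culture it stood between 47676 and 157704, or at 27.7% to 95.05%, which lay outside the range from P4 to 2 years on either scale but, in percent, on both sides of E13.5. In RNA, Scn1a was lowest at E10.5 and between 391 and 554 CPM from P13 on. The Scn2b promoter, with the fewest CG dinucleotides of those shown, held a peak in 18 of 22 libraries, in neither E10.5 nor P21 library, and at best at rank 30371, at P4. The CG-rich Scn4b promoter held a peak at ranks 28622 and 26785 at E10.5 and at 20755 and 28165 at DIV0, where the RNA-seq libraries held at most 6 counts of the gene. In percent of the list, these peaks stood at 35.6% and 27.6% at E10.5 and at 21.96% and 34.9% at DIV0, and the peak at DIV28 stood at 46.4% and 41.6%. The downstream start of Scn2a, the start of Scn9a and that of Scn3b ranked high in every library, between 1851 and 14064, between 3633 and 13397 and between 1597 and 22129. With 2 libraries per group no test was made, and sequencing depth is unknown from the peak lists.

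**Figure D5:**
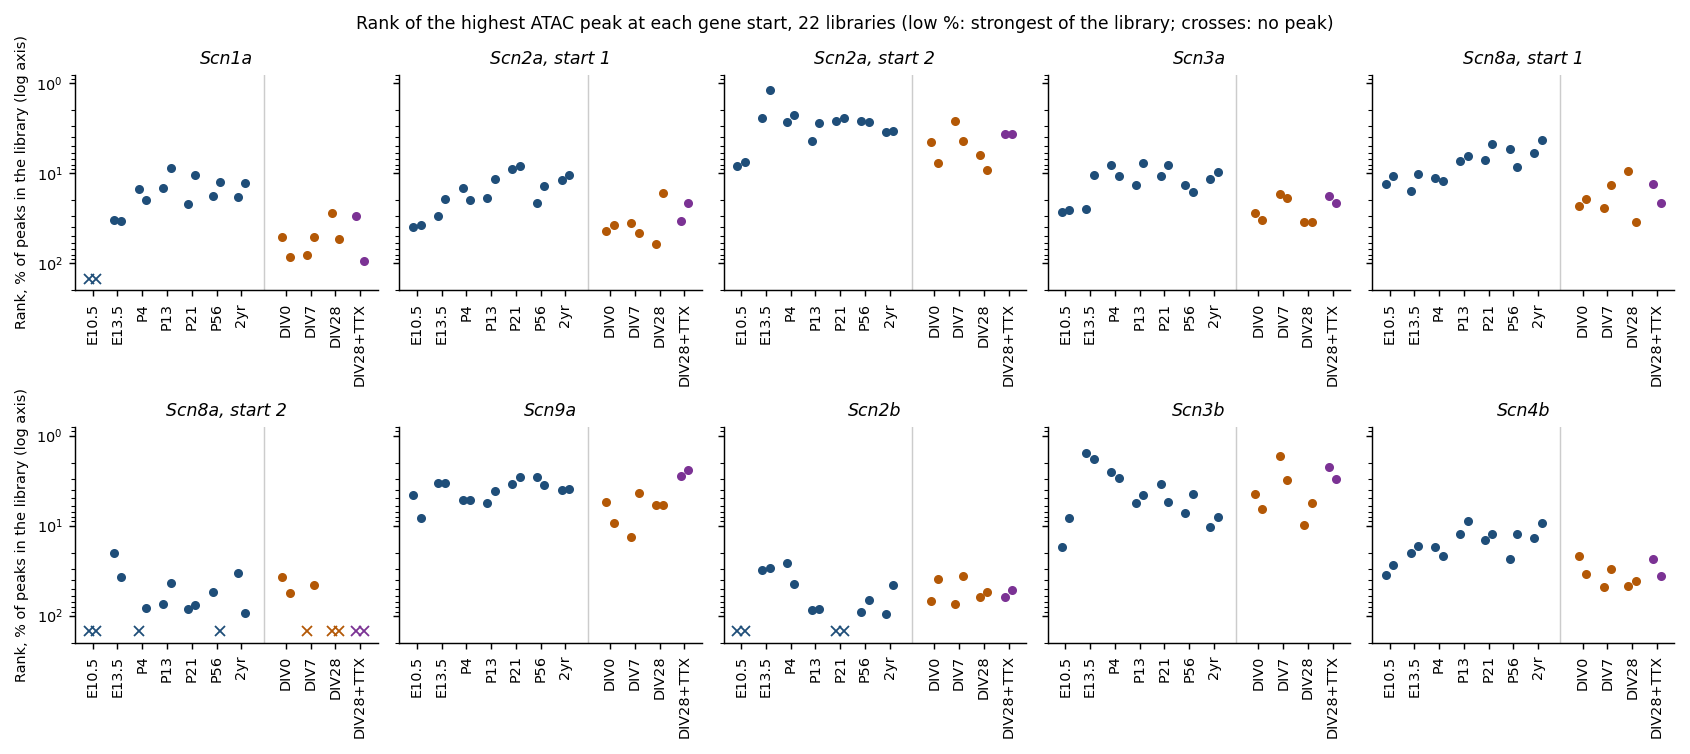
Rank of the promoter peak of each start window in every ATAC-seq library, in percent of the peaks of that library by −log10 p on an inverted log axis, with the highest peaks at the top and crosses where no peak was called. The Scn1a window lacks a peak in both E10.5 libraries and stands between 8.64% and 21.8% from P4 to 2 years, and the Scn4b window holds a peak in all 22.

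Around the whole genes, the 50000 highest peaks of each library gave between 20 and 33 summits in or within 10 kb of the 8 members. The lowest of these 50000 peaks had a −log10 p of 3.30 and 7.44 at E10.5 and of 42.3 and 46.0 at E13.5. The cut thus took in far weaker peaks at E10.5, and a gain or loss of sites cannot be read from these numbers. Scn1a held 7 and 6 of these at E10.5, when its promoter had no peak, 1 and 1 at E13.5, and between 2 and 4 in each library from P4 to 2 years. In culture it held at most 2. Scn8a held 9 and 7 at E10.5, 11 and 9 at DIV0 and between 3 and 8 at the other ages and times. Scn3a held 1 and 3 at E10.5 and between 4 and 7 at the later ages.

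The genes most like each member over the 28 RNA libraries, by Pearson correlation of log2(CPM + 1) over 15561 genes, are given as a description, since the points share libraries and age. Scn1a was most like Stxbp5l (r = 0.984) and Ss18l2 (0.981), Scn2a like Snhg11 (0.985) and Rabgap1l (0.984), and Scn8a like Ncoa1 (0.982) and Adam23 (0.981). Scn4b was most like A930017M01Rik (0.983) and Aifm3 (0.973), and Aifm3 had a mean of 0.95 CPM at E10.5, 155 at P21, 0.85 at DIV0 and 8.53 at DIV28. For Scn3a the nearest genes were Dhx57 (0.951) and Cep170 (0.928), for Scn9a Unc5c (0.952) and Mindy2 (0.938), and for Scn2b Ppp2r2c (0.942) and Nceh1 (0.938). Scn3b had the least close neighbours, Atp2c1 (0.872) and Unc13b (0.862).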

How the data were processed

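RNA-seq covered 28 libraries and ATAC-seq 22 libraries, grouped by the age or culture condition in their labels. For RNA-seq, the authors trimmed reads with Trim Galore, aligned them to mm10 with STAR 2.5.2b and counted genes of GENCODE vM21 with RSEM 1.3.0, from a stranded total RNA kit. The deposited tables hold expected counts, TPM and effective lengths. For ATAC-seq, the authors aligned with BWA and called peaks per library with MACS2 2.2.7.1 at a p limit of 0.01, and the deposited peaks carry a fold enrichment (a ratio to local background) and a −log10 p; the depth behind them is unknown, so that presence and rank were compared.

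After rounding of the expected counts, the filter on low counts required 5 CPM in all replicates of a group, and edgeR 4.0.16 (R 4.3.3, glmQLFit and glmQLFTest, TMM factors) was fitted to 3 sets: 18 cord libraries (15030 genes), 10 culture libraries (12890) and 25 without TTX (15521). Adjusted p-values are Benjamini-Hochberg over all genes of a fit. DESeq2 1.42.0 served as an alternative and the scripts were tested on simulated data. Python 3.11.15, numpy 2.4.6, pandas 2.3.3, scipy 1.17.1 and matplotlib 3.10.9 were used. Nothing in the labels names cultures or animals behind each replicate, so p-values measure the spread between these libraries. Intervals for Scn4b are exact and 95% wide.

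The 8 members, the lists and the comparisons were chosen with earlier results of these data known. The members were named in every comparison, and other genes by lists (FGF homologous factors, scaffold; a further list is not reported here), with values for those past the limits, plus the 2 genes most correlated with each member. The study pairs DIV28 with TTX replicates, and the correlation between paired libraries, each taken relative to the mean of its group, was 0.631, 0.544 and 0.704 over 12890 genes. Promoter windows and sequences are RefSeq (GRCm38.p6) for 6 of the 8 members; windows of Scn3a and Scn3b used the GENCODE gene start.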

Additional observations from a re-analysis of the deposited data

Results flagged for a closer look

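Scn8a was singled out because its change over culture differed from its change in the cord by a test of the difference itself. In the same test, 41.7% of all 15521 genes were called, so that a call alone does not set a gene apart. The E13.5 libraries also held RNA of other cells, and its part in this difference was not tested. The log2 change from DIV0 to DIV28 was lower by 2.02 than that from E13.5 to P21, that is −2.02 ± 0.26 (adjusted p = 9.86e-07, edgeR's quasi-likelihood test). The mean level was 105 CPM at E13.5, 555 at P21, 235 at DIV0 and 365 at DIV28, and the difference was called under every alternative tried, the omission of each library included. No group held 4 or more libraries, so that single libraries were not tested for standing apart.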

How the results depend on the processing

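Of 29 called values of members, 15 kept their call under every alternative, 28 of 339 alternatives lost one and none reversed direction. Counts of members called moved as follows. With an adjusted p limit of 0.05 in place of 0.001 unadjusted, there were 4 instead of 1 from P4 to P13, 1 instead of 0 from DIV0 to DIV7, 4 instead of 2 for DIV0 over E13.5 4 instead of 1 in the interaction and 7 instead of 5 from E13.5 to P21. Without the filter on low counts these became 4, 1, 4, 3 and 7, with 4 instead of 2 from DIV7 to DIV28 and 2 instead of 0 with TTX. With only the libraries compared there were 3 instead of 5 from E10.5 to E13.5, 4 from P4 to P13, 1 for DIV0 over E13.5, 2 in the interaction and 7 from E13.5 to P21. DESeq2 gave 2 from P4 to P13, 6 from E13.5 to P21 and 1 with TTX. From E10.5 to E13.5, there were 7 instead of 5 with the adjusted p limit, and 6 with DESeq2 or without the filter. With the titled DIV0 library as DIV0, there were 0 from DIV7 to DIV28, 0 instead of 4 from DIV0 to DIV28, 2 instead of 4 for DIV28 over P21 and 2 in the interaction. Leaving out 1 replicate gave 3 to 7 from E10.5 to E13.5, 4 to 5 from E13.5 to P4, 1 to 2 from DIV7 to DIV28, 2 to 3 from DIV0 to DIV28, 0 to 1 with TTX, 1 to 3 for DIV0 over E13.5, 3 to 4 for DIV28 over P21 and 1 to 2 in the interaction; the cause was not tested.

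With the replicate number as a block, 1 member was called from DIV0 to DIV7, 4 from DIV7 to DIV28 and 1 with TTX, and 2 with TTX in the added fit of the 6 libraries compared; elsewhere the number is only a name and the block left the counts of members called as they were. The joint share of Scn3a and Scn9a at E13.5 minus that at P21 was 40.7 percentage points, 44.7 without division by length, and 38.0 to 43.4 leaving out 1 library. Promoter peaks with a −log10 p of at least 5 were 189 of the 205. The difference in mean gene-body summits between P21 and E13.5 was 2.5, and 4 with 50 kb around the genes. Scn4b was left out of the culture tests by the filter on low counts; without the filter its difference with TTX was −0.25 ± 0.67 (log2, SE).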
